A study of Mus musculus with 13 samples.

Results

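Genes that encode the chains of collagens were taken by their symbols, as all genes named Col, a number, a and a number. The array measured 44 such genes of the 19938 genes tested, through 46 transcript clusters, the units into which the array groups its probes. Where a gene had more than 1 cluster (Col6a5 and Col6a6, with 2 each), the cluster with the highest mean over all arrays was used. The genes fall into 11 fibrillar collagens, 8 collagens of basement membranes (Col4a1 to Col4a6, Col15a1 and Col18a1) and 25 other collagens.

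The RNA came from primary mouse embryonic fibroblasts (MEFs, bought from Millipore), which are connective tissue cells grown from mouse embryos, and no strain, genotype or embryonic age is given. Cells grown at 37°C were moved to mild hypothermia (32°C) or kept at normothermia (37°C) for 0.5, 1, 2, 4, 8 or 18 h, and a dish group taken at 0 h at 37°C starts both series, which makes 13 arrays. Each array carries the pooled RNA of 3 dishes, and each temperature and time stands on 1 array without replicates, so that the errors below measure the scatter about a fitted time course or among same-time pairs of arrays. The study sought genes whose level moves steadily with time in the cold.

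Collagens are proteins of the extracellular matrix in which chains wind around each other into a triple helix. Fibrillar collagens such as types I, III and V pack into the fibrils that give connective tissue its strength, and fibroblasts are the main cells that make them. Type IV forms the sheet-like network of basement membranes, and the other collagens bind to fibrils, form beaded filaments or hexagonal networks, or span the cell membrane.

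The defining markers of fibroblasts were present, with 10 of 12 listed markers above the median signal of all genes, a log2 intensity of 7.54. The exceptions were Fap and Tcf21. Of the markers of other cell types, 0 of 8 for endothelium, 0 of 5 measured for bone, 2 of 9 for cartilage, 2 of 8 for epithelium and 1 of 6 for macrophages were above it, as were all 7 of smooth muscle, which MEFs in culture are known to express in part. At 4, 8 and 18 h the summed intensity of the fibroblast markers was 40789 to 40900 at 32°C and 41069 to 41991 at 37°C, and that of the macrophage markers was 499 to 608 at 32°C and 464 to 477 at 37°C. Neither pair of ranges overlapped, whereas the sums of the other lists overlapped between the temperatures, those of cartilage (1649 to 2055 and 1757 to 1889) and bone (330 to 342 and 319 to 346) among them. The part of these shifts in the values below was not tested.

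Of the 44 collagen genes, 1 separated the temperatures past the threshold, and it did so downward in the cold. That gene was Col10a1, whose chain forms the type X collagen of cartilage undergoing replacement by bone. At 37°C its log2 intensity was 9.52 at 0 h and then 9.60, 9.64, 9.77, 9.91, 10.19 and 10.19 at 0.5, 1, 2, 4, 8 and 18 h. At 32°C it was 9.54, 9.64, 9.49, 9.52, 9.64 and 9.57 at the same times. The values at 37°C were higher at each successive time, while those at 32°C stayed between 9.49 and 9.64, and from 2 h on the ranges of the temperatures did not overlap. The last step at 37°C was very small, from 10.1937 at 8 h to 10.1946 at 18 h. By 18 h the level was 1.6-fold that at 0 h at 37°C and 1.04-fold at 32°C.

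The difference of each pair of arrays, 32°C minus 37°C, was -0.06, 0.00, -0.28, -0.39, -0.56 and -0.62 on the log2 scale from 0.5 to 18 h for Col10a1, lower in the cold in 5 of 6 pairs. Its divergence, which is the log2 difference between the temperatures gained per time point on a line through 0 at 0 h, was -0.099 (SE 0.012, adjusted p = 0.00647 from limma over all genes). The mean difference at 4, 8 and 18 h, called the late difference here, was -0.52 (SD 0.12, n = 3 pairs, adjusted p = 0.0141 from limma), or 0.696-fold the level at 37°C. The divergence did not pass once 32°C had a level term of its own (adjusted p = 0.134), and the late difference did not pass with ranks within each array (adjusted p = 0.0615), without the 8 h arrays (0.119) or without the 18 h arrays (0.0771). In the divergence 1.66% of all genes were called lower and 1.17% higher, and 1 collagen (2.27%) and 0 collagens were. In the late difference 2.15% of all genes were called lower and 0.802% higher, against 1 collagen and 0. Each share among the collagens rests on at most 1 gene and lies near its background. In these pooled dishes fewer cells of a type and less RNA per cell cannot be told apart.

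**Figure D1:**
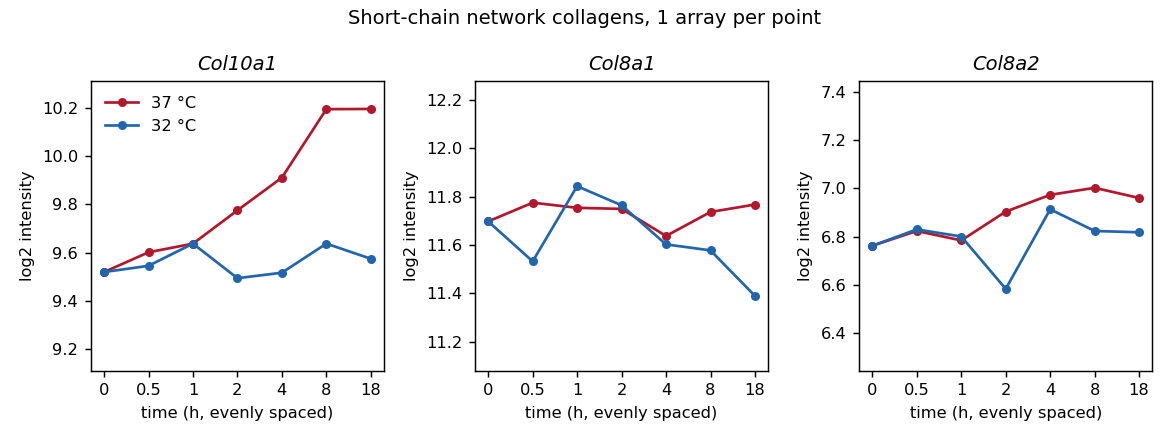
Log2 intensity of the short-chain network collagens Col10a1, Col8a1 and Col8a2 against time in h (evenly spaced) at 37°C (red) and 32°C (blue), 1 array per point and the same span of log2 units in each panel. Col10a1 reached 10.19 at 37°C and stayed at or below 9.64 at 32°C, whereas the late differences of Col8a1 and Col8a2 were -0.19 and -0.13.

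Fitted alone, the series at 37°C gave Col10a1 a slope of 0.12 on the log2 scale with an SE of 0.014 (limma, adjusted p = 0.146), and the series at 32°C gave 0.0082 (SE 0.015, adjusted p = 0.825). Both fits share the array at 0 h. No gene of the 19938 passed the adjusted threshold at 37°C (0.0%), so the same holds for the collagens, and 0 collagens passed at 32°C, where 0.0451% of all genes were called higher and 0.0502% lower. Kendall's tau of Col10a1 at 37°C was 1, the value for a strict order over all 7 times (exact p = 3.97e-04, the smallest that 7 times can give, and 0.729 after adjustment over all genes). At an unadjusted exact p under 0.05, 2 collagens had a positive tau at 37°C, Col10a1 and Col8a2, where 2.53% of all genes did, and 0 had a negative one, against 1.43%. The slope at 37°C likewise had an unadjusted p under 0.05 in 2 collagens on the positive side, against 3.62% of all genes, and in 0 on the negative side, against 2.18%. At 32°C the count was 0 in both directions, where 4.44% of all genes had a positive and 4.74% a negative tau at that p.

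The related short-chain collagens are the chains of type VIII, a hexagonal network known from vessel walls and the cornea. Col8a1 had log2 intensities of 11.70 at 0 h, 11.77, 11.75, 11.75, 11.64, 11.74 and 11.77 at 37°C, and 11.53, 11.84, 11.76, 11.60, 11.58 and 11.39 at 32°C. Its level at 32°C was the lowest of the course at 18 h, but the 0.5 h array was low as well, and the late difference of -0.19 (SD 0.17, n = 3 pairs, adjusted p = 0.276 from limma) was close to its own spread. Col8a2 lay between 6.78 and 7.0 at 37°C (median 6.93) and between 6.58 and 6.91 at 32°C (median 6.82), with its lowest value on the 2 h array. Its slope at 37°C was 0.041 per time point (SE 0.011, adjusted p = 0.686) and its late difference -0.13 (SD 0.061, n = 3 pairs, adjusted p = 0.424 from limma). The divergence of all 3 short-chain genes was negative, -0.099 for Col10a1, -0.035 for Col8a1 and -0.032 for Col8a2, and the adjusted p was 0.239 for Col8a1 and 0.218 for Col8a2.

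Stretches of 250 bases before the annotated start of Col10a1, Col8a1 and Col1a2 are shown because the first is the gene that passed the test, the second another short-chain collagen, and the third a chain of type I. They were read from the RefSeq promoter table (GRCm38.p6), 5′ to 3′ on the strand of the gene, at chr10:34389731-34389980 (plus strand), chr16:57754738-57754987 (minus strand) and chr6:4505368-4505617 (plus strand). Capitals mark exact matches, on either strand, to the letters TATAAA (the core of a TATA box), CCAAT and GGGCGG (a GC box), which do not overlap one another here.
Col10a1: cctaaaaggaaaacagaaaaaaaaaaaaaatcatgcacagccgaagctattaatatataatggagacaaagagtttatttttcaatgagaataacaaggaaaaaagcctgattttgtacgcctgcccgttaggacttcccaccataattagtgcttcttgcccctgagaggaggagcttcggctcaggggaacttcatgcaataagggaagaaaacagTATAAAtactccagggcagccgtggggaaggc
Col8a1: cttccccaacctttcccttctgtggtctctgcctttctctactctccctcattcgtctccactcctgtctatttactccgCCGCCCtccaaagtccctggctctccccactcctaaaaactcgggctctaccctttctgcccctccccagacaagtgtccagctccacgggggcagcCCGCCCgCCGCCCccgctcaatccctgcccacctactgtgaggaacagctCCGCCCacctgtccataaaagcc
Col1a2: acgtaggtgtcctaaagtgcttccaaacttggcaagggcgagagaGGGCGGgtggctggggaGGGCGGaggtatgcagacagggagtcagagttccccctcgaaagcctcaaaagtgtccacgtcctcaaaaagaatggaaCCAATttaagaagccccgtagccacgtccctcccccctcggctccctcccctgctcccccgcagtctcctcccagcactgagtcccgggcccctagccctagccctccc
The stretch of Col10a1 holds 1 TATAAA, whose last base lies 27 bases before the start, and no match to the other letters. That of Col8a1 holds GGGCGG 4 times, each on the opposite strand and read here as CCGCCC, and that of Col1a2 holds it in 2 places beside 1 CCAAT, whose last base lies 105 bases before the start. Of the collagens, 35 had a promoter entry, in 38 windows, and 9 had none, among them Col1a1, Col5a2 and Col12a1. In the 250 bases before the start, TATAAA was found in 5 of the 38 windows (13.2%) and in 12.4% of all 32851 windows, CCAAT in 13 (34.2%) and in 33.8%, and GGGCGG in 22 (57.9%) and in 32.7%. The windows run on to 50 bases after the start, and those of Col4a1 and Col4a2, genes that share a promoter region, overlap by 78 bases, so the 38 are not all separate. A match is a description of letters and not a site of binding.

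Chains of the main fibrils stood lower in the cold from 2 h on, with no difference of pairs below -0.28 on the log2 scale, and 0 of them passed the threshold. Col1a1, which encodes the chain present in a double copy in type I collagen, had log2 intensities of 12.19 at 0 h and 12.17, 12.28, 12.35, 12.30, 12.40 and 12.14 at 37°C. At 32°C they were 12.24, 12.35, 12.10, 12.09, 12.18 and 11.87. The arrays at 0.5 and 1 h were higher in the cold, those from 2 h on were lower, and the groups overlapped at 4, 8 and 18 h because the 18 h array at 37°C was low too. The late difference of Col1a1 was -0.24 (SD 0.032, n = 3 pairs, adjusted p = 0.133 from limma), or 0.849-fold. Its divergence was -0.046 (SE 0.013, adjusted p = 0.0809). When the fit was rerun on the brighter part of all genes, with fewer genes in the adjustment, Col1a1 passed (adjusted p = 0.0470 from limma). What made it pass there was not tested. Without the 18 h arrays or those of any other time Col1a1 did not pass.

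Col1a2, the partner chain of type I, lay between 11.96 and 12.10 at 37°C (median 12.01) and between 11.74 and 12.14 at 32°C (median 11.93). Its differences of pairs were 0.09, 0.15, -0.13, -0.15, -0.15 and -0.24 from 0.5 to 18 h, and the late mean was -0.18 (SD 0.054, n = 3 pairs, adjusted p = 0.213 from limma). The 3 late values in the cold were all below the 3 late values at 37°C. Col3a1, the single chain of type III, which forms the fine fibrils of soft tissues, showed the same order with more spread: its late difference was -0.15 (SD 0.12, adjusted p = 0.316), and its pair at 1 h stood 0.22 higher in the cold. Col5a1 and Col5a2, chains of type V, which sits in the core of type I fibrils, had late differences of -0.15 (SD 0.031, adjusted p = 0.302) and -0.17 (SD 0.036, adjusted p = 0.195). Each of these 5 chains was lower in the cold in 4 of 6 pairs, those from 2 h on, and their late differences ran from -0.24 to -0.15 with a median of -0.17. The 5 were named by their role, but they share every array, and their likeness is not independent support. The type V chain Col5a3 is not among them and had a positive late difference, given below.

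**Figure D2:**
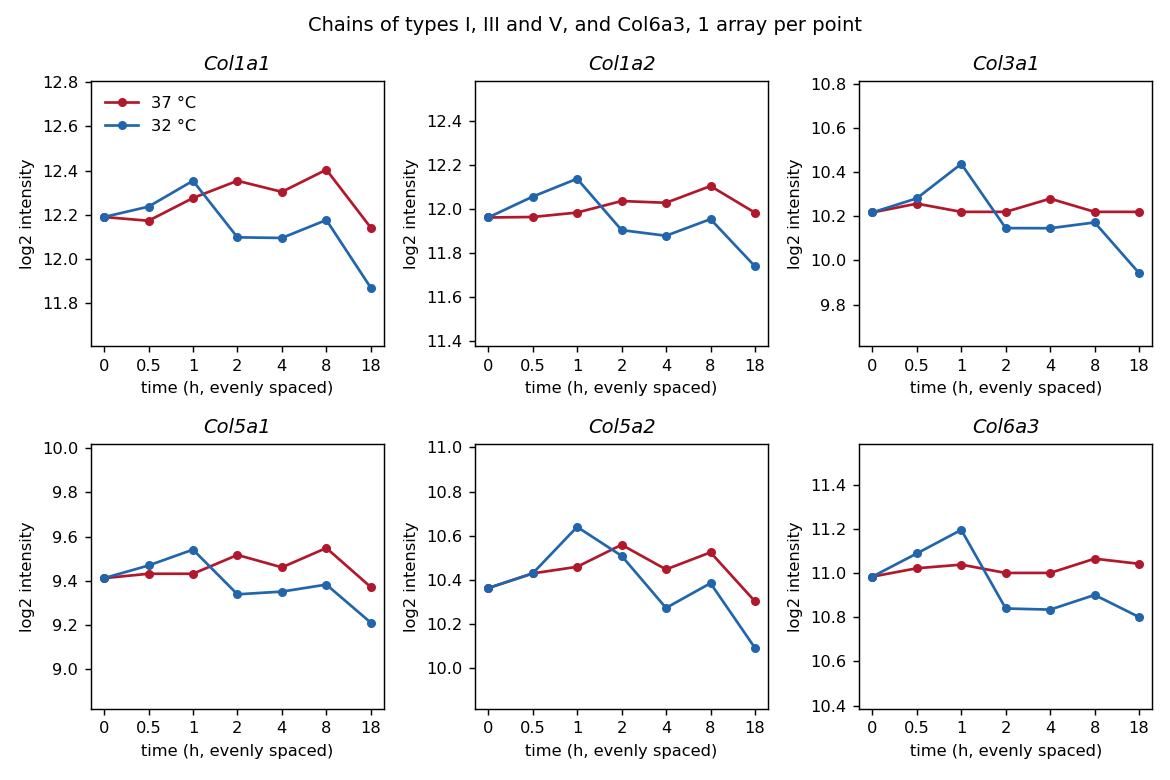
Log2 intensity of Col1a1, Col1a2, Col3a1, Col5a1, Col5a2 and Col6a3 against time in h (evenly spaced) at 37°C (red) and 32°C (blue), 1 array per point and the same span of log2 units in each panel. In all 6 panels the blue line peaks at 1 h, is below the red line from 2 h on and is lowest at 18 h.

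The remaining 6 fibrillar genes include Col5a3, a further chain of type V, and chains of types II and XI, known from cartilage. Their late differences lay between -0.044 for Col2a1 and 0.13 for Col11a2, and 0 of them passed. Col11a2 and Col5a3 had positive late differences (0.13 and 0.051), Col27a1 had 0.042, and Col11a1 and Col24a1 had -0.012 and -0.029. The fibrillar class as a whole had a median late difference of -0.044, with 8 of 11 genes negative, and a median divergence of -0.0072, beside 0.0099 and 0.0020 for all genes tested. The slopes at 32°C of Col1a1 and Col3a1 (both -0.048, adjusted p = 0.291 and 0.294) had unadjusted p values under 0.05 in limma, as did 3 collagens (6.82%) and 9.35% of all genes in that direction, and 0 collagens had so low a p for a positive slope, against 7.14%.

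The basement membrane collagens gave late differences of both signs, and 0 of them passed. Col4a1 and Col4a2, whose chains make up the common form of type IV collagen and whose genes lie head to head, gave different values. Col4a1 had differences of pairs of 0.04, -0.02, -0.16, -0.05, -0.09 and 0.03, with a late mean of -0.034 (SD 0.061, n = 3 pairs, adjusted p = 0.829 from limma). Col4a2 had 0.22, 0.11, -0.19, -0.16, -0.12 and -0.13, with a late mean of -0.14 (SD 0.018, adjusted p = 0.405). The difference between these chains was not tested.

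Col4a5, a chain of the type IV network known for its loss in Alport syndrome, was lower at 32°C in 6 of 6 pairs, the one member of the 44 of which this is true, and 0 were higher in all 6. This count was not made over all genes, so it cannot be read as a trait of Col4a5. Its log2 intensity was 7.98 to 8.05 at 37°C (median 8.00) and 7.70 to 8.03 at 32°C (median 7.96). The differences of the early pairs were small (-0.04, -0.02 and -0.02), the late ones were -0.03, -0.14 and -0.29, and the late mean was -0.15 (SD 0.13, n = 3 pairs, adjusted p = 0.255 from limma). Col4a3, Col4a4 and Col4a6, chains of more specialised basement membranes, had positive late differences of 0.12, 0.11 and 0.11, with adjusted p between 0.381 and 0.413 from limma. Their mean log2 intensities lay between 6.54 and 6.78, below the median of all genes. Col15a1 and Col18a1, which carry sugar chains and hold the antiangiogenic fragment endostatin or its relative at their ends, differed late by -0.0051 and -0.017. The class median was -0.011 in the late difference and -0.0014 in the divergence, and with the 6 type IV chains alone 0.036 and 0.0035.

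The remaining collagens held both the lowest and the highest late differences. The beaded filament chains of type VI surround cells in most connective tissues. Of these, Col6a3 had a late difference of -0.19 (SD 0.044, n = 3 pairs, adjusted p = 0.199 from limma), with late pairs of -0.17, -0.16 and -0.24. Col6a1 and Col6a2 had late differences of -0.061 and -0.048 and were also lower in the cold in all 3 late pairs. Whether these chains differ from Col6a3 was not tested. The brighter transcript cluster of Col6a6 read 8.35 at 18 h and 32°C and 8.17 at 0 h, but its dimmer one read 6.61 and 6.83, so the changes at the clusters of this gene have opposite signs. Among the 9 fibril-associated collagens, which decorate fibrils, Col12a1 had a late difference of -0.11 (SD 0.040, adjusted p = 0.381).

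Col9a2, a chain of type IX, which coats the fibrils of cartilage, had the highest late difference of all 44 genes, 0.19 (SD 0.054, n = 3 pairs, adjusted p = 0.142 from limma), or 1.14-fold. It lay between 7.74 and 7.85 at 37°C (median 7.81) and between 7.71 and 8.01 at 32°C (median 7.91). Its pairs at 1 and 2 h were at -0.12 each, and the 3 late ones were at 0.25, 0.14 and 0.20. All 4 transmembrane collagens (Col13a1, Col17a1, Col23a1 and Col25a1) had late differences between 0.00015 and 0.069, and the 3 remaining genes, Col7a1, Col26a1 and Col28a1, had 0.065, 0.13 and 0.12. Col26a1, Col6a4 and Col11a2 had the lowest p values among positive slopes at 32°C, with slopes of 0.036, 0.040 and 0.034 and adjusted p between 0.316 and 0.388. At 37°C Col4a2 followed Col10a1 and Col8a2 in p among positive slopes, with a slope of 0.023. Among negative slopes there, Col28a1, Col9a1 and Col9a2 had the lowest p values. Their slopes were -0.019, -0.011 and -0.0085, with adjusted p between 0.892 and 0.942 from limma. The median late difference of the 25 other collagens was 0.016 and their median divergence 0.0010.

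**Figure D3:**
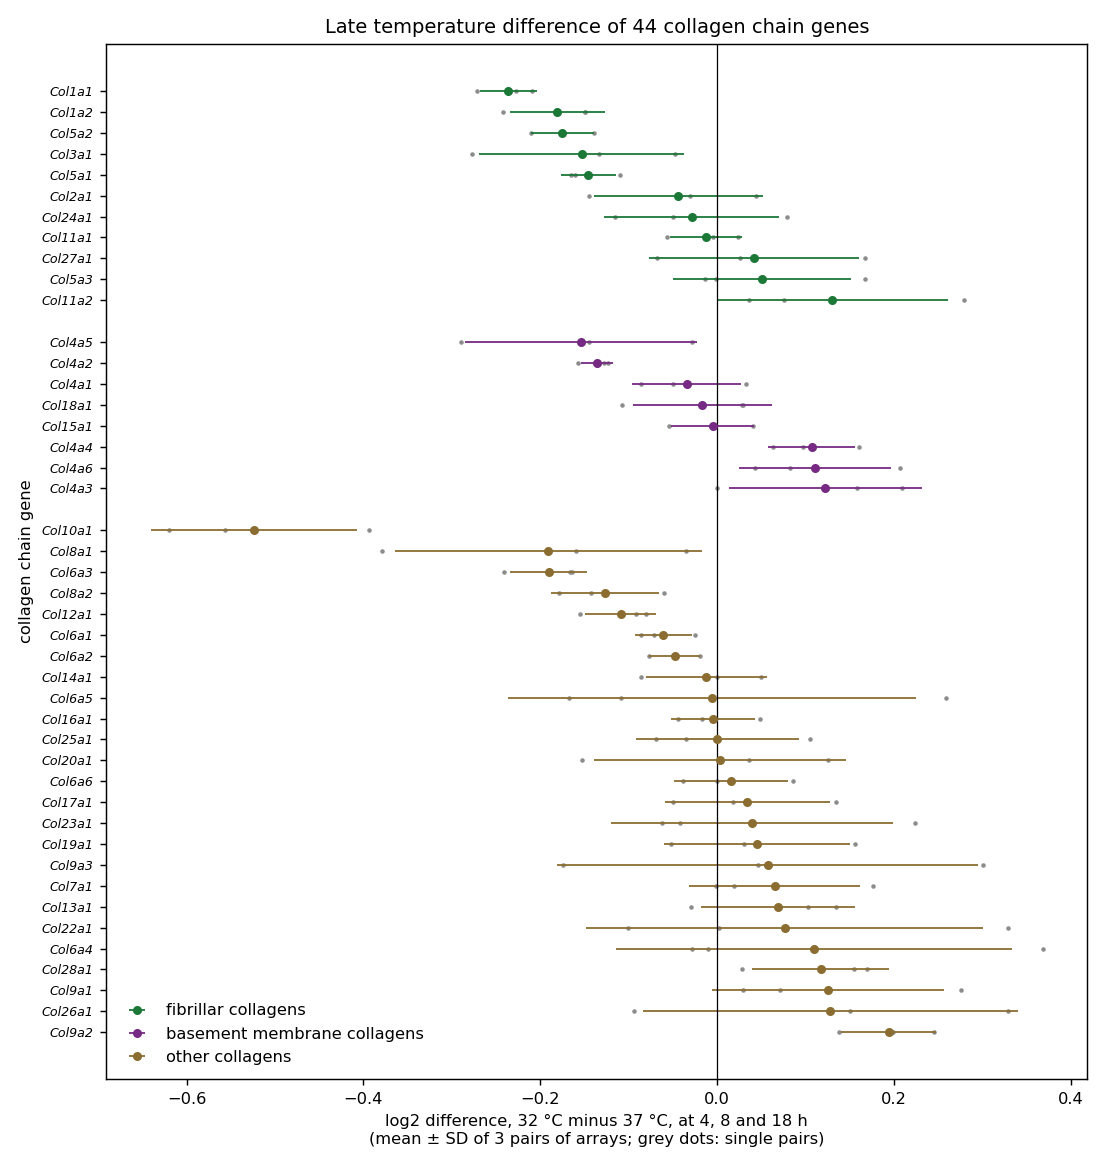
Late difference of each of the 44 collagen genes in log2 units, 32°C minus 37°C, as the mean and SD of the pairs at 4, 8 and 18 h (coloured points and bars) with the single pairs as grey dots, grouped into fibrillar (green), basement membrane (purple) and other collagens (brown). Col10a1 stands at -0.52 and the other 43 genes lie between -0.24 and 0.19.

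Counted over all members, 14 of 44 were lower in the cold in all 3 late pairs (31.8%), against 20.2% of all genes, and 6 were higher in all 3 (13.6%), against 20.0%. The late values at 32°C all lay below those at 37°C for 9 members (20.5%, against 12.9% of all genes), which were Col1a2, Col3a1, Col4a5, Col6a1, Col6a3, Col8a1, Col8a2, Col10a1 and Col12a1. They all lay above for 3 members (6.82%, against 10.3%), Col4a4, Col9a2 and Col28a1. At an unadjusted p under 0.05 in limma, 8 members had a negative divergence (18.2%, against 9.9% of all genes) and 0 a positive one, against 8.52%. The corresponding late counts were 6 lower (13.6%, against 10.8%) and 1 higher (2.27%, against 7.62%). The rate of negative divergences at that p went with brightness. Above the median signal it held for 7 of 26 collagens and 1522 of 9969 genes, and at or below it for 1 of 18 collagens and 451 of 9969 genes. These are counts without adjustment over members that share all arrays, and the divergence count fell to 2 without the arrays at 8 h or at 18 h. In the mean over all 6 pairs 0 collagens passed the adjusted threshold, where 0.0552% of all genes were called lower and 0.015% higher, and 2 were lower at an unadjusted p under 0.05 (4.55%, against 6.39%) and 0 higher, against 7.13%. With a separate term for 32°C, 0 collagens passed, where 0.00502% of all genes were called lower and 0.015% higher, and at an unadjusted p under 0.05 7 collagens were lower (15.9%, against 8.6%) and 0 higher, against 4.85%. In 0 collagens was every 32°C array below the 0 h value and every 37°C array above it, or the reverse, against 0.0301% and 0.16% of all genes.

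In 10 genes the unadjusted p was under 0.05 in the divergence or the late difference: Col1a1, Col1a2, Col4a5, Col5a1, Col5a2, Col6a3, Col8a1, Col8a2, Col9a2 and Col10a1. The share of all genes that meet this either-test rule was not counted, so the 10 cannot be set against a background. The other 34 had divergences between -0.024 and 0.026 and late differences between -0.15 and 0.13, with no adjusted p below 0.316. Over all 44 the median late difference was -0.0047 and the median divergence 0.00072, near the values of all genes.

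The sign of the late difference went with the brightness of the gene on the array. Of the 26 collagens above the median signal of all genes, 18 had a negative late difference, with a median of -0.046, and of the 18 at or below it 13 had a positive one, with a median of 0.048. Over all genes the same split gave medians of -0.025 and 0.033, with 57% and 36% of the genes negative. Since the fibrillar class holds 9 genes above the median signal, the basement membrane class 4 of 8 and the others 13 of 25, the class medians mix chain type with brightness. Among genes above the median signal the median late difference was -0.15 for 9 fibrillar collagens, -0.085 for 4 of basement membranes and -0.0042 for 13 other collagens, of which Col9a2 had 0.19. The 5 main fibril chains lay below the median of all genes in their own bin of signal, which was nowhere lower than -0.057. Col6a3 and Col10a1 did so too, but they were singled out by their low late differences, so this is no separate support. Of the 26 collagens above the median signal, 8 had a positive late difference.

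**Figure D4:**
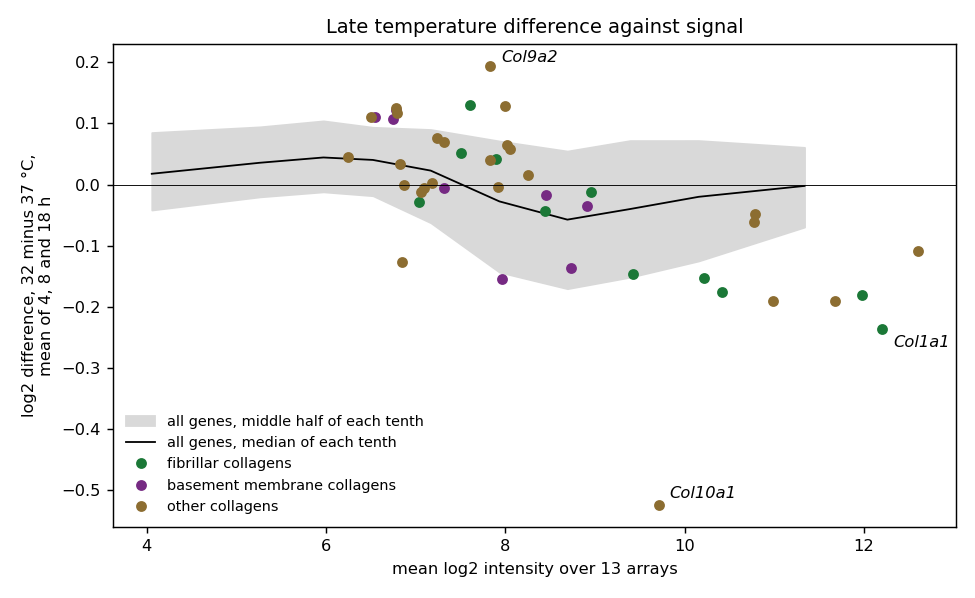
Late difference in log2 units (32°C minus 37°C, mean of 4, 8 and 18 h) of the 44 collagens against their mean log2 intensity over 13 arrays, coloured by class, with the median (line) and interquartile range (grey band) of all genes in each of 10 bins of signal. Most dim collagens lie near or above 0, and Col10a1 at -0.52 lies far under the band.

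Many members had their extreme values on the same arrays. At 32°C the array at 2 h held the lowest value for 19 of 44 collagens and the array at 18 h for 11, while the 1 h array held the highest for 14 and the 18 h array for 12. The 11 lowest at 18 h included all 5 main fibril chains, Col6a3, Col8a1, Col4a2, Col4a5, Col11a1 and Col12a1, and the 12 highest there included Col6a4, Col26a1 and Col28a1. For collagens above the median signal the median change from 0 h was 0.12 on the 1 h array and -0.056 on the 2 h array at 32°C, and 0.056 and 0.049 at 37°C. At 37°C the 4 h array held the highest value for 19 collagens and the 18 h array the lowest for 18. The same counts were not made over all genes, so they cannot be read as a trait of collagens. Over all 44 collagens the median change at 32°C was 0.044 on the 1 h array and -0.054 on the 2 h array. Over all genes it was -0.00055 and 0.0016 on these arrays.

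The genes that act on collagens or bind them were described through lists of 18 measured genes for chain modification and folding, 14 for export and propeptide cleavage, 4 for crosslinking, 14 for fibril-binding proteins, 9 for receptors and 13 for partners in basement membranes. In these lists 2 genes passed in the divergence, both lower in the cold, where 1.66% of all genes were called lower and 1.17% higher. They were 1 of 9 receptors and 1 of 13 partners in basement membranes, and so few calls cannot be read as a trait of the lists. At an unadjusted p under 0.05 in limma 0 genes of the lists were higher, against 8.52% of all genes. Itga2, a subunit of a collagen-binding integrin, had log2 intensities of 9.15 at 0 h, 9.16, 9.24, 9.31, 9.42, 9.46 and 9.12 at 37°C, and 9.14, 9.21, 9.28, 9.20, 9.03 and 8.48 at 32°C. It was lower in the cold in 6 of 6 pairs, most at 18 h, with a divergence of -0.077 (SE 0.014, adjusted p = 0.0224 from limma) and a late difference of -0.43 (SD 0.21, n = 3 pairs, adjusted p = 0.0311). Without the 18 h arrays the adjusted p of its divergence was 0.128, and without the 8 h arrays 0.117.

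Hspg2, which encodes perlecan, a proteoglycan that binds type IV collagen networks, lay between 11.15 and 11.30 at 37°C up to 8 h, had its lowest value there at 18 h, and read 11.28, 11.36, 10.95, 10.93, 10.94 and 10.58 at 32°C. It was higher in the cold at 0.5 and 1 h and lower from 2 h on, with a divergence of -0.064 (SE 0.014, adjusted p = 0.0382 from limma) and a late difference of -0.33 (SD 0.11, n = 3 pairs, adjusted p = 0.0698). Its call in the divergence was lost without the arrays of 0.5, 2, 4, 8 or 18 h, with adjusted p up to 0.171.

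The other genes of these lists did not pass. In chain modification, P4ha3, a subunit of the prolyl hydroxylase that stabilises the triple helix, had a divergence of -0.051 (adjusted p = 0.0571 from limma), Serpinh1, the collagen chaperone also known as HSP47, -0.042 (adjusted p = 0.0920), and Tmem38b, an ion channel of the endoplasmic reticulum, -0.028 (adjusted p = 0.241). In export and cleavage, Tll1 and Bmp1, proteases that trim procollagen, had -0.031 and -0.020, and Mia3, which loads procollagen into transport carriers, -0.033. The crosslinking enzymes Loxl3, Lox and Loxl4 had -0.017, -0.012 and -0.013. Of the fibril-binding proteins, Prelp, a small leucine-rich protein, had -0.077 (adjusted p = 0.0524), fibronectin (Fn1) -0.023 and Fmod -0.030.

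Partners of basement membranes and receptors held more members with a low unadjusted p. For the divergence 7 of 13 partners and 5 of 9 receptors were lower at an unadjusted p under 0.05, against 3 of 18 in modification, 1 of 14 in export, 0 of 4 in crosslinking and 1 of 14 among fibril-binding proteins, and 9.9% of all genes. The median divergence was -0.027 for the partners, -0.031 for the receptors, -0.017 for fibril-binding proteins, -0.013 for crosslinking, -0.012 for modification and -0.0080 for export, beside 0.0020 for all genes. In each list most measured members were above the median signal, 10 of 13 partners and 7 of 9 receptors among them, and genes above the median signal had a median divergence of -0.0029. Of the 9969 genes above it, 1522 were lower at that unadjusted p. The lists were chosen with earlier results of these data known, and their genes share all arrays. Their order is therefore not independent support for a difference between lists.

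**Figure D5:**
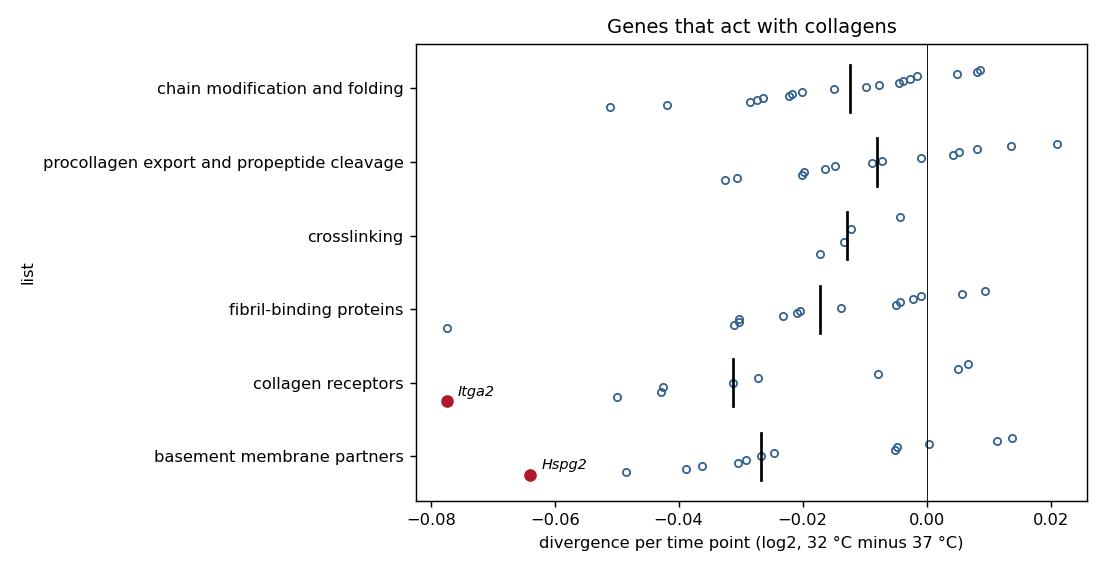
Divergence per time point in log2 units (32°C minus 37°C) of each measured gene in 6 lists of genes that act with collagens, with a bar at each list's median and filled red points for genes with an adjusted p under 0.05 in limma. Itga2 at -0.077 and Hspg2 at -0.064 are the filled points, and all 6 medians lie below 0.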

How the data were processed

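Expression of 13 pooled RNA samples of mouse embryonic fibroblasts was profiled on the Affymetrix Mouse Gene 1.0 ST array. The authors deposited 1 linear intensity value per transcript cluster and array. The probe summarization and normalization behind these values are not given in the sources used here. Array medians lay between 145 and 149.8, and values were log2 transformed as deposited. Some values of a gene repeat exactly between arrays. Col10a1, for example, reads 9.637 at 1 h at both temperatures and at 8 h at 32°C. The effect of such repeats on the errors was not tested. Of 28853 clusters, 21789 carried 1 gene symbol, giving 19938 genes, each represented by its brightest cluster. With 1 array per temperature and time, the number of arrays limits the precision.

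Models were fitted over all genes with limma 3.58.1 in R 4.3.3: the slope on the order of 7 time points (0 to 6) at each temperature, the divergence (32°C times order, time as a block, no separate 32°C term), the mean difference over 6 pairs, and the late difference (4, 8 and 18 h). Calls required a 2-sided p under 0.05 after Benjamini-Hochberg adjustment. Exact tests were used for Kendall's tau. Tables were handled in Python 3.11.15 and plotted with matplotlib 3.10.9. Promoter sequences came from RefSeq (GRCm38.p6).

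Alternatives were quantile normalization, ranks, genes above the median signal, the mean of all clusters, log2 time, a separate 32°C term and leaving out each time. Genes were named if their unadjusted p was under 0.05 in the divergence or the late difference, if they were among the 3 lowest p of either slope in each direction, or as main chains of types I, III, IV and V, and from the partner lists if they passed or, in a list where none passed, if they had the 3 lowest p. Members and lists were chosen with earlier results of these data known.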

Additional observations from a re-analysis of the deposited data

Results flagged for a closer look

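Among the collagens and the listed genes that act on or bind them, 3 passed the divergence test (limma, adjusted p under 0.05). Of all genes tested, 1.66% were called lower at 32°C and 1.17% higher at that threshold. So few calls cannot be read as a trait of collagens or of the listed genes. The divergence of Col10a1 was -0.099 log2 per time point, that of the integrin subunit Itga2 -0.077 and that of perlecan (Hspg2) -0.064. With a separate term for 32°C, which takes out any steady offset between the temperatures after 0 h, the differences of slopes were -0.13, -0.13 and -0.11, with adjusted p of 0.134, 0.136 and 0.172.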

How the results depend on the processing

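In the slopes at either temperature and in the mean over 6 pairs, 0 collagens passed under every alternative run. In the divergence the 1 collagen that passed, Col10a1, also passed under each alternative but 1: with a separate term for 32°C the count was 0. Among genes above the median signal it was 2, with Col1a1. In the late difference the count of 1 became 0 with ranks within each array (adjusted p of Col10a1 0.0615), without the 8 h arrays (0.119) and without the 18 h arrays (0.0771). The count of 2 collagens with an unadjusted exact p under 0.05 for a positive tau at 37°C ranged from 1 to 5 on leaving out a time: it was 1, Col10a1, without 0, 0.5, 1, 2, 4 or 8 h, and 5 without 18 h, where Col1a2, Col4a1 and Col5a1 joined Col10a1 and Col8a2. The call of Itga2 in the divergence was lost with ranks (adjusted p = 0.0510), with a separate term for 32°C and without 4, 8 or 18 h, and in the late difference with ranks and without 1, 8 or 18 h. That of Hspg2 was also lost with ranks (0.0939). Of the other single values and medians none reversed a called direction. The causes were not tested. Arrays of the same time were paired in the divergence and in the differences of pairs, and no replicate numbers exist for any other pairing. With 1 array per time, a single array can set a late value, and differences under the spread of the pairs are not resolved.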
